A study of Homo sapiens with 8 samples.

Results

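Chromatin accessibility was examined at the genes of 5 lysine acetyltransferases, CREBBP, KAT2A, KAT2B, KAT6A and KAT6B, and of the BET bromodomain readers BRD2 and BRD3, in 2 myeloma lines exposed to an immunomodulatory drug, a p300/CBP bromodomain inhibitor or both. The members were all peaks to which the deposited table gives one of these 7 gene symbols as the nearest transcript. There were 23 such peaks among 62528: 7 for KAT2B, 5 for KAT6A, 4 for BRD3, 3 each for CREBBP and KAT6B, and 1 for BRD2. KAT2A had no peak under its symbol and was dropped as a member. Of the 23 peaks, 8 were promoter peaks (within 1000 bp of the annotated start), 13 lay elsewhere in the gene and 2 were intergenic, and all 23 passed the filter on low values. Whether a peak in a gene is exonic or intronic is not given in the sources used here.

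ATAC-seq was used, an assay whose transposase cuts and tags open DNA, so that more reads in a peak mean more cutting there. JJN3 and KMS11, established lines grown from human plasma cell cancer, were kept in RPMI with 5% serum and exposed for 48 h to the solvent DMSO, to 200 nM pomalidomide, to 40 nM GNE-781, or to both drugs at those doses (the combination). There was 1 library for each line and treatment, 8 in all. Each line is 1 culture line, so differences between lines describe these 2 lines only. Pomalidomide binds cereblon and has the transcription factors IKZF1 and IKZF3 degraded. GNE-781 binds the bromodomain of CREBBP and of its close relative EP300.

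Lysine acetyltransferases place acetyl groups on histone tails, and bromodomains bind them. CREBBP is a broad transcriptional coactivator that is recruited to enhancers and carries both an acetyltransferase domain and a bromodomain. KAT2A and KAT2B are alternative catalytic subunits of the SAGA and ATAC coactivator complexes, and KAT6A and KAT6B are MYST family enzymes that work with BRPF scaffold proteins. BRD2 and BRD3 are BET proteins, which read acetylated histones and recruit the transcription machinery; BET inhibitors act on myeloma cells in culture. An ATAC-seq peak at one of these genes shows open DNA there, and neither its transcript nor its protein was measured.

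Library totals ran from 1366628 counts (JJN3 under DMSO) to 5435673 (KMS11 under the combination), and the median peak held 12 to 49 counts. Levels below are CPM, counts scaled to library size with edgeR's TMM factors, and changes are log2 changes ± SE from a model over all 8 libraries. Tests are edgeR's quasi-likelihood tests, adjusted by the Benjamini-Hochberg method over the 62234 peaks tested, and calls are those with an adjusted p under 0.05. Of 11 plasma cell marker genes, 8 had a promoter peak, with a summed level of 302 to 343 CPM in JJN3 and 232 to 266 in KMS11. Promoter peaks were also present at 2 of 5 mature B cell markers (12.0 to 21.8 CPM in JJN3, 42.2 to 56.7 in KMS11), 2 of 6 T and NK cell markers (30.8 to 52.3 and 52.5 to 61.8), 1 of 6 myeloid markers (5.23 to 14.1 and 5.50 to 9.86), 1 of 3 erythroid markers (1.45 to 12.7 and 1.60 to 5.79) and 3 of 5 stromal and endothelial markers (34.4 to 44.7 and 47.6 to 70.3). Their part in the results was not tested. A lower level in every cell and a smaller share of cells with the site open cannot be told apart in bulk libraries.

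The sequences printed here are those of the outermost RefSeq starts of CREBBP, KAT2A, KAT2B and BRD2, at each of which a peak was open. The table's symbols do not give the peaks of KAT2A and BRD2 to these genes. RefSeq starts farther inside CREBBP, KAT6B and BRD3 also had a peak, and their windows are not printed or counted below. The printed sequences are the 250 bases before a RefSeq transcript start (GRCh38.p14), 5′ to 3′ on the gene's own strand. Capitals mark the GC box GGGCGG on either strand, a binding motif of SP family factors.
CREBBP, chr16:3880714-3880963, minus strand: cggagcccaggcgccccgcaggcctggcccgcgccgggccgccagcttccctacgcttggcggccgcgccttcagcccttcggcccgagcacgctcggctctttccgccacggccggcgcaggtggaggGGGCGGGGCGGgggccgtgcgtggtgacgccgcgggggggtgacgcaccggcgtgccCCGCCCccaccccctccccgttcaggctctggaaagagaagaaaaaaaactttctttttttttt
KAT2A, chr17:42121368-42121617, minus strand: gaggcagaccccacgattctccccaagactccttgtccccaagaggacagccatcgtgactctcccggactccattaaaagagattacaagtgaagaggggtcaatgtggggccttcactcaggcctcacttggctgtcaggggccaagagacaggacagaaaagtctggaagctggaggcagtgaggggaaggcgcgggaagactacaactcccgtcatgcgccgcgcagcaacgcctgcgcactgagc
KAT2B, chr3:20040196-20040445, plus strand: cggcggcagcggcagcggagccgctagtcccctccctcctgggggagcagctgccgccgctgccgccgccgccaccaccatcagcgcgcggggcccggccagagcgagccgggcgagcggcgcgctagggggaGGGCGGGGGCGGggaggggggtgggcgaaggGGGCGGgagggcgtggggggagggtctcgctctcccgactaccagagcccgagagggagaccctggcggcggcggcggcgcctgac
BRD2, chr6:32968344-32968593, plus strand: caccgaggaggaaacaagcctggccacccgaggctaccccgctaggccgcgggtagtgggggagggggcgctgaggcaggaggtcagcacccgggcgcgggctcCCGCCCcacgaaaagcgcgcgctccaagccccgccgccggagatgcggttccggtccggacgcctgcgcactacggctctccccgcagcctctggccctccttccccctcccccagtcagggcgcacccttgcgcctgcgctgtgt

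The CREBBP and KAT2B windows lay wholly inside an open peak and held 3 GC box matches each. The window before the outermost BRD2 start shared 225 bases with a peak and held 1 match, and the KAT2A window shared 174 bases with a peak and held 0. Over 35116 RefSeq windows of the same 250 bases, 42.6% held at least 1 GC box. The window letters were also searched on both strands for AP-1 (TGANTCA, in 6.57% of all windows), CRE (TGACGTCA, 1.65%), ETS (CCGGAAG, 8.52%), YY1 (AAGATGG, 3.7%) and the Ikaros core (TGGGAA, 20.8%), and none of these was in any of the 4 windows. GC content was 72.4% for CREBBP, 58.8% for KAT2A, 80.8% for KAT2B and 74% for BRD2.

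A single member site, inside KAT2B, was called under a drug treatment. Under the combination 1 of 23 member peaks was called, against 4.78% of all peaks tested, a share near the background, and 5 members had an unadjusted p under 0.05, against 17.4% of all peaks. Under pomalidomide 0 members were called (1.27% of all peaks), with 0 at an unadjusted p under 0.05, against 11.2% of all peaks. Under GNE-781 0 were called (0.0209% of all peaks), with 1 at an unadjusted p under 0.05, against 6.58% of all peaks. DESeq2's Wald test called 0 members in each of these 3 comparisons. The median log2 change of the members was 0.06 with pomalidomide, -0.01 with GNE-781 and 0.07 with both, beside 0.02, 0.00 and 0.00 over all peaks tested. The members' estimates ran from -1.61 to 0.94 under the combination and from -0.72 to 1.39 with GNE-781, so that a missed threshold does not show an unchanged site. These comparisons share the DMSO libraries.

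KAT2B peak 4, at chr3:20048837-20049554 and 8139 bp inside the gene from its annotated start, was the site called. In JJN3 its level was 33.6 CPM under DMSO, 21.0 with pomalidomide, 19.9 with GNE-781 and 10.7 with both, from 45, 63, 31 and 22 counts. In KMS11 it was 2.59, 2.36, 1.62 and 0.89 CPM in the same order, from 10, 11, 5 and 5 counts. In both lines DMSO was the highest library, the single agents lay between, and the combination was the lowest. Over both lines the peak fell by 1.61 on the log2 scale under the combination (SE 0.40, adjusted p = 0.00979), to 0.328 of the DMSO level. Within JJN3 the ratio of combination to DMSO was 0.317 (95% counting interval 0.181 to 0.539), and within KMS11 it was 0.344 (0.0923 to 1.1), so that the KMS11 counts alone cannot show the fall. The call was lost with DESeq2's Wald test (adjusted p = 0.101) and without the JJN3 DMSO (0.306), JJN3 combination (0.217) or KMS11 combination library (0.0878).

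The single agents' changes at KAT2B peak 4 were -0.53 ± 0.36 for pomalidomide (adjusted p = 0.648) and -0.72 ± 0.39 for GNE-781 (adjusted p = 0.792), neither called. Against pomalidomide alone the combination differed by -1.07 ± 0.40 (adjusted p = 0.48), and against GNE-781 alone by -0.88 ± 0.44 (adjusted p = 0.454). In all libraries with GNE-781 against all without, the difference was -0.90 ± 0.28 (adjusted p = 0.12). A further fall beyond the single agents was therefore not shown at this depth.

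The other KAT2B peaks outline how the gene's open sites sit along its length. KAT2B encodes PCAF, the acetyltransferase first described as a partner of p300 and CBP. Its promoter peak with the most counts, peak 1 at chr3:20039770-20041035, had 49.3, 66.3, 64.1 and 59.2 CPM in JJN3 under DMSO, pomalidomide, GNE-781 and the combination, and 61.9, 55.8, 69.3 and 58.2 CPM in KMS11. The lines overlapped there and the combination change was 0.04 ± 0.19. Peak 2, the other promoter peak, had 10.5 to 23.8 CPM in JJN3 and 13.9 to 14.8 CPM in KMS11.

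Peak 5 of KAT2B, 13874 bp from the annotated start, missed the threshold under the combination. It is singled out after its values were seen. Its level was 42.6, 43.3, 36.5 and 28.6 CPM in JJN3 under DMSO, pomalidomide, GNE-781 and the combination, and 45.6, 32.8, 35.9 and 28.3 CPM in KMS11. The combination library was the lowest of 4 in each line, with a change of -0.64 ± 0.21 (adjusted p = 0.0575). Scaled by DESeq2 size factors it was called (adjusted p = 0.0435), while DESeq2's Wald test gave an adjusted p of 0.279 and the fits that left out 1 library gave up to 0.571, without KMS11 DMSO. Peak 7, 63862 bp from the start, changed by -0.66 ± 0.31 (adjusted p = 0.239), while peak 3 changed by 0.09 ± 0.31 and peak 6 by -0.13 ± 0.39. Summed over its 7 peaks, KAT2B changed by -0.24 ± 0.13 under the combination (adjusted p = 0.402).

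**Figure D1:**
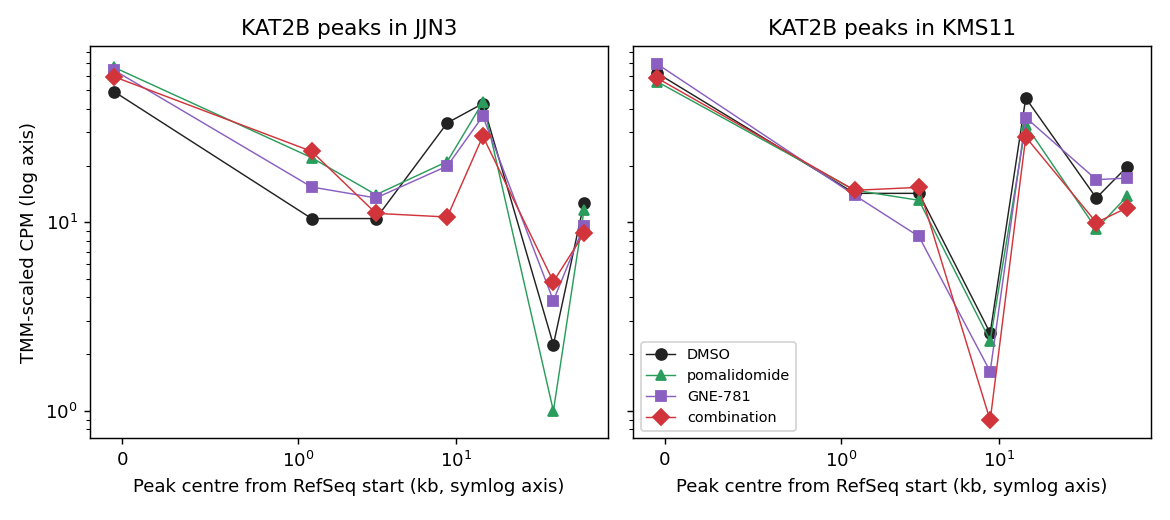
Accessibility of the 7 KAT2B peaks by distance of the peak's centre from the RefSeq start (kb, with a linear stretch near 0), in TMM-scaled CPM on a log axis, for JJN3 and KMS11; each symbol is 1 library and lines only join peaks of a library. At peak 4, JJN3 runs from 33.6 CPM under DMSO to 10.7 under the combination, and KMS11 stays between 0.89 and 2.59.

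CREBBP, the direct target of GNE-781 among the members, had 2 peaks at the start and 1 upstream. None was given to it farther inside the gene, where peaks can carry the symbol of another transcript. The promoter peak with the most counts, peak 2 at chr16:3880577-3881119, had 9.72 CPM in JJN3 under DMSO, 15.7 with pomalidomide, 17.3 with GNE-781 and 21.3 with both. In KMS11 it had 14.2, 11.8, 14.9 and 15.5 CPM. The JJN3 values spread over a wider range than the KMS11 values, and the model's combination change was 0.46 ± 0.30 (adjusted p = 0.461). It was 0.13 without the JJN3 DMSO library and 1.08 without the KMS11 DMSO library. Promoter peak 1 had 7.48 to 12.1 CPM in JJN3 and 7.77 to 12.8 CPM in KMS11, with a combination change of 0.25 ± 0.33. Intergenic peak 3, 22181 bp from the start at chr16:3902907-3903229, had 5.23, 5.00, 5.13 and 10.2 CPM in JJN3, from 7, 15, 8 and 21 counts, and 2.33, 3, 1.29 and 1.78 CPM in KMS11. The JJN3 combination library stood apart from the others there, while the combination change over both lines was 0.36 ± 0.57.

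KAT6A, the MYST acetyltransferase also called MOZ, had 5 peaks. Its promoter peak with the most counts, peak 5 at chr8:42051733-42052781, had 71.8, 86.3, 73.1 and 91.6 CPM in JJN3 under DMSO, pomalidomide, GNE-781 and the combination, and 47.4, 48.9, 43.7 and 57.2 CPM in KMS11. In both lines the combination library was the highest, with a change of 0.31 ± 0.18 that was not called (adjusted p = 0.402). Peak 3, 45763 bp into the gene at chr8:42005349-42006224, had the gene's largest combination change, 0.68 ± 0.30 (adjusted p = 0.2), which was 0.22 without the JJN3 DMSO library and 1.42 without the KMS11 DMSO library. There JJN3 had 12.0, 17.7, 19.2 and 35.9 CPM, from 16, 53, 30 and 74 counts, while KMS11 had 14.2, 13.5, 8.41 and 15.1 CPM. The JJN3 ratio to DMSO under the combination was 3 (95% counting interval 1.73 to 5.52) against 1.06 (0.749 to 1.52) in KMS11. The line difference in the combination change was not tested. In the model that takes the drugs to add, the line difference was 1.11 ± 0.37 for GNE-781 (adjusted p = 0.396) and 0.43 ± 0.38 for pomalidomide (adjusted p = 0.854), neither called.

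KAT6A peak 2, at chr8:41995202-41995589, had 16.4, 4.67, 13.5 and 13.6 CPM in JJN3 and 3.62, 6.43, 5.83 and 5.17 CPM in KMS11. The JJN3 pomalidomide library was the low one, at 14 counts. KAT6A peaks 1 and 4 had 23.8 to 33.6 and 22.4 to 27.6 CPM in JJN3 and 13.3 to 21.9 and 12.0 to 19.2 CPM in KMS11.

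KAT6B, the paralog of KAT6A also called MORF, had 1 promoter peak. This peak 1, at chr10:74825909-74827258, had 118, 148, 128 and 124 CPM in JJN3 under DMSO, pomalidomide, GNE-781 and the combination, and 101, 100.2, 109 and 94.0 CPM in KMS11. Its combination change, -0.03 ± 0.17, had a 95% interval of -0.36 to 0.31. Peak 2, at chr10:74963545-74963840, had 5.98, 8.67, 12.2 and 7.27 CPM in JJN3 and 5.18, 4.93, 2.27 and 4.1 CPM in KMS11. Peak 3, at chr10:74978037-74978411, had 10.5, 11, 13.5 and 14.1 CPM in JJN3 and 5.95, 2.36, 5.18 and 3.38 CPM in KMS11. Over all members the 2 lines did not overlap at 11 of 23 peaks, the 3 of KAT6B among them, beside 42.4% of all peaks tested.

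Among the BET genes, BRD3 carried the member peak with the lowest unadjusted p under GNE-781. BRD3 peak 2, 12237 bp into the gene at chr9:134056059-134056298, had 3.74 CPM in JJN3 under DMSO, 9.67 with pomalidomide, 18.6 with GNE-781 and 14.1 with both, from 5, 29, 29 and 29 counts. In KMS11 it had 5.44, 8.15, 10.4 and 7.48 CPM, from 21, 38, 32 and 42 counts. DMSO was the lowest library and GNE-781 the highest in both lines. The GNE-781 change was 1.39 ± 0.40 (unadjusted p = 0.000864, adjusted p = 0.305), and the combination change was 0.94 ± 0.39 (adjusted p = 0.175), neither called. Without the JJN3 DMSO library, which held the 5 counts, the GNE-781 change was 0.99 and the combination change 0.54, and without the KMS11 DMSO library they were 2.21 and 1.76.

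The BRD3 promoter peak, peak 4 at chr9:134067883-134068816, had 32.9, 46.3, 45.5 and 48.0 CPM in JJN3 and 38.8, 46.5, 49.5 and 41.3 CPM in KMS11. DMSO was the lowest library in each line, and the changes were 0.34 ± 0.20 under pomalidomide, 0.38 ± 0.21 under GNE-781 (adjusted p = 0.795) and 0.27 ± 0.20 under the combination, none of them called. The last was 0.11 without the JJN3 combination library and 0.46 without the KMS11 combination library. BRD3 peak 1, at chr9:134030876-134031143, had 2.24, 1.00, 1.28 and 2.42 CPM in JJN3, from 3, 3, 2 and 5 counts, and 10.1, 7.08, 11.7 and 7.84 CPM in KMS11. BRD3 peak 3 had 12.0 to 17.9 CPM in JJN3 and 16.8 to 27.2 CPM in KMS11. BRD2 peak 1, intergenic at chr6:32984575-32985073, had 22.4, 17.0, 24.4 and 25.7 CPM in JJN3 and 10.3, 9.65, 8.41 and 7.84 CPM in KMS11, with a combination change of -0.10 ± 0.30.

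**Figure D2:**
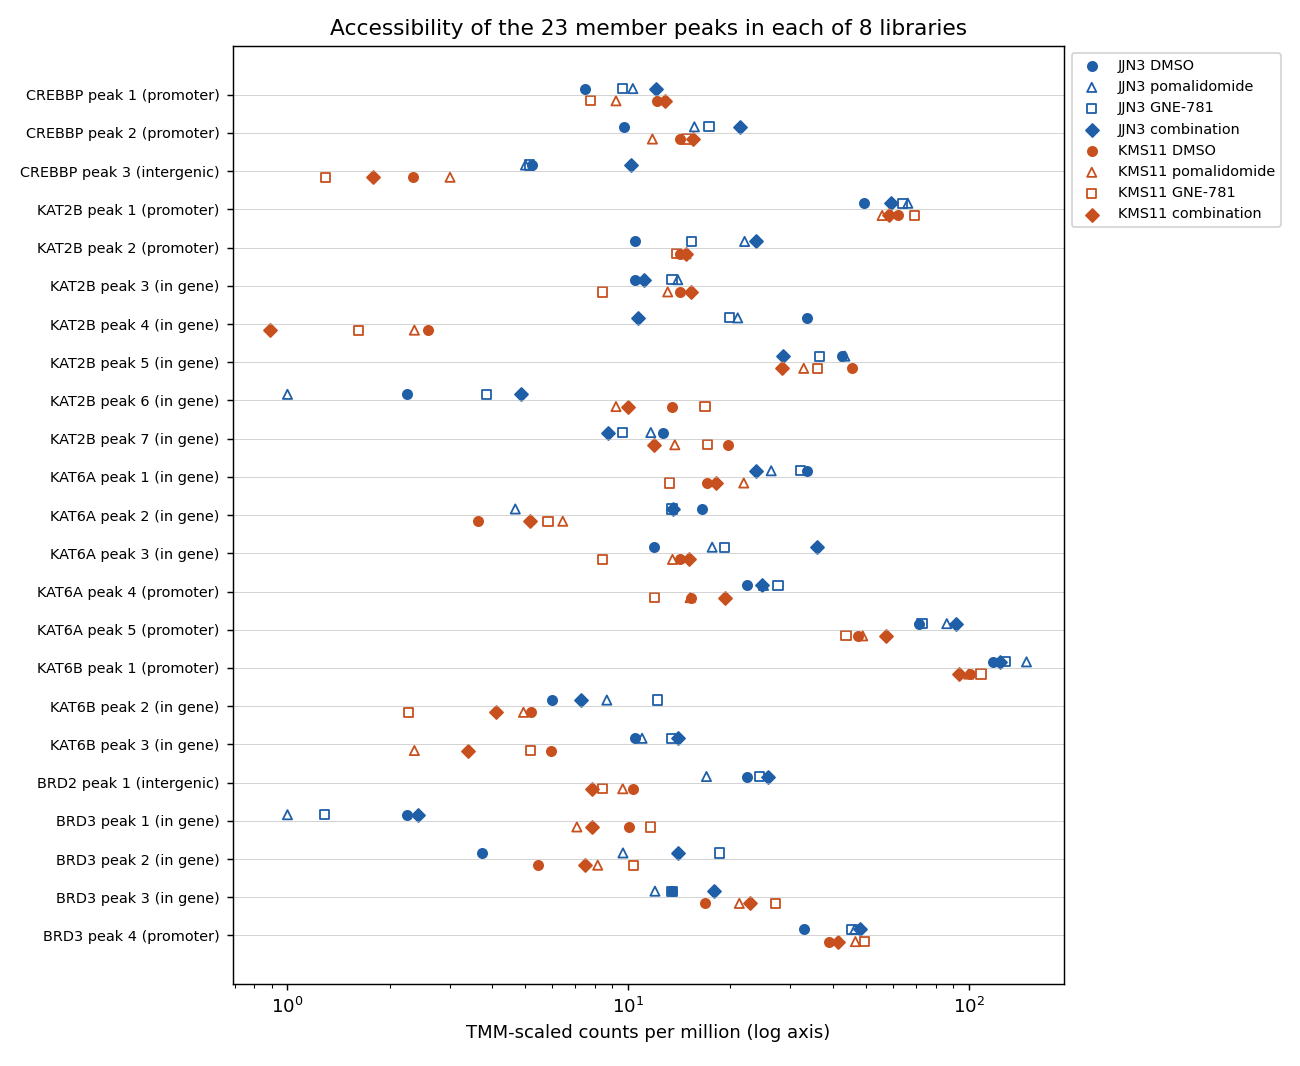
Level of each of the 23 member peaks in TMM-scaled CPM (log axis), with 1 symbol per library, blue for JJN3 and orange for KMS11, and the symbol's shape for the treatment. The colours separate at 11 peaks, KAT2B peaks 4 and 6, BRD3 peak 1 and the promoter peaks KAT6A peak 5 and KAT6B peak 1 among them, and mix at the CREBBP, KAT2B and BRD3 promoter peaks.

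In JJN3, 18 of the 23 peaks had a ratio of combination to DMSO above 1, and in KMS11, 12 did, beside 50.7% and 50.2% of all peaks tested. The direction was the same in both lines at 13 of the 23, or 56.5%, beside 59.1% of all peaks. All JJN3 ratios share 1 JJN3 DMSO library, the shallowest of the 8. Its part in these ratios was not tested. Summed per gene, 0 of 6 genes were called under the combination by edgeR, against 3.49% of 24872 gene entries, with 1 at an unadjusted p under 0.05 (BRD3, 0.35 ± 0.17, adjusted p = 0.283), and DESeq2's Wald test called 0. The BRD3 sum was 0.18 without the JJN3 combination library and 0.59 without the KMS11 combination library.

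**Figure D3:**
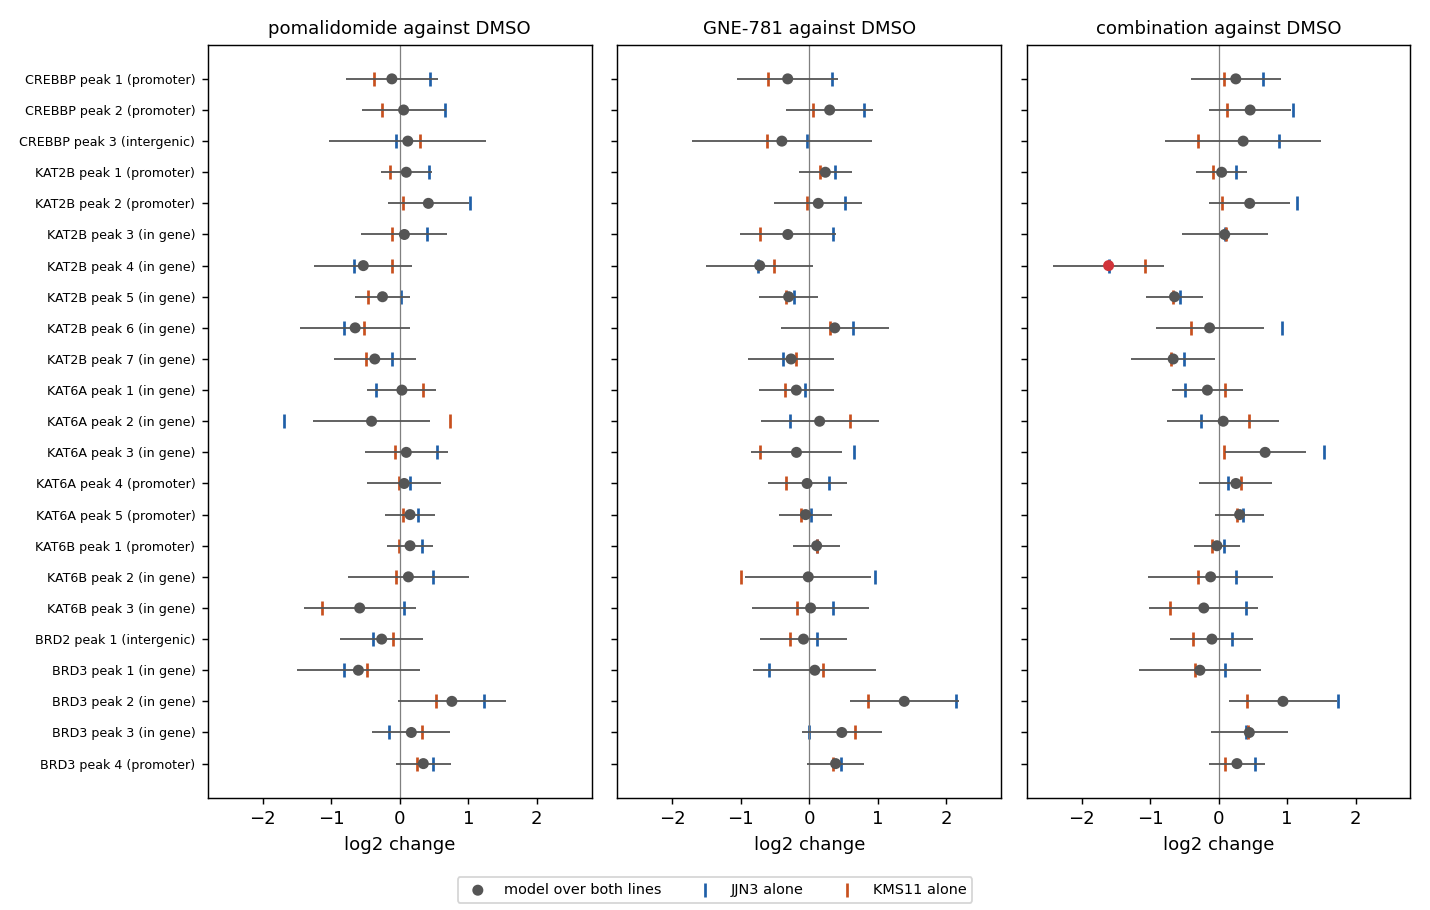
Log2 change of each member peak under each treatment against DMSO. Dots are the model's estimates over both lines with 95% intervals, red where called, and ticks are the ratios within JJN3 (blue) and KMS11 (orange), 1 library against 1. KAT2B peak 4 under the combination, at -1.61, is the 1 red dot in the panels.

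The drugs were also compared in the other ways the design allows. Against pomalidomide alone the combination called 0 members (0.0112% of all peaks), with 2 at an unadjusted p under 0.05 (7.41% of all peaks), and against GNE-781 alone 0 (1.1% of all peaks), with 2 (10.7%). A test of whether the log2 changes of both drugs add up to that of the combination called 0 members and 0% of all peaks, with 1 member at an unadjusted p under 0.05 beside 2.65% of all peaks. In libraries with GNE-781 against those without, 0 members were called (0.622% of all peaks), with 3 at an unadjusted p under 0.05 (11.1%), and in libraries with pomalidomide against those without 0 (5.29%), with 4 (17.1%). The difference between the lines called 0 members for the pomalidomide change (0.0723% of all peaks), with 3 at an unadjusted p under 0.05 (7.98%), and 0 for the GNE-781 change (0.00964%), with 1 (7.13%). DESeq2's Wald test called 0 members in each of these 7 comparisons.

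The lines themselves differed more than the treatments. Between JJN3 and KMS11, 8 of 23 member peaks were called (adjusted p under 0.05 and at least 2-fold), against 31.9% of all peaks, a share near the background. The 8 were 6 of 13 peaks in genes and both intergenic peaks, and 0 of 8 promoter peaks, beside 34.9% of all peaks in genes, 36.0% of intergenic peaks and 21.8% of promoter peaks. KAT2B peak 4 had the largest difference, 21.3 ± 9.44 CPM (SD, n = 4 libraries, 1 for each treatment) in JJN3 against 1.86 ± 0.770 in KMS11, or 11-fold (log2 3.46 ± 0.29, adjusted p = 1.85e-16). Such an SD includes the spread between treatments and is not one of replicates. The filter of 2 CPM took the mean over all 8 libraries, so a peak can pass it through 1 line alone. The KMS11 mean of KAT2B peak 4 lay below that limit. At KAT2B peak 6, 40369 bp into the gene at chr3:20081067-20081565, the direction was the opposite. JJN3 had 2.24, 1.00, 3.85 and 4.85 CPM under DMSO, pomalidomide, GNE-781 and the combination, KMS11 had 13.5, 9.22, 16.8 and 9.97 CPM, and the difference was -2.05 ± 0.33 (adjusted p = 2.4e-07). Sites within 1 gene thus differed between the lines in both directions, while the KAT2B promoter peaks did not pass the test (-0.02 ± 0.13 and 0.33 ± 0.21) and the gene's sum differed by 0.10 ± 0.10.

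BRD3 peak 1 was lower in JJN3, at 1.74 ± 0.702 CPM (SD, n = 4 libraries, 1 for each treatment) against 9.17 ± 2.1 in KMS11, a difference of -2.37 ± 0.39 (adjusted p = 3.9e-07). Its JJN3 mean lay below the filter's limit of 2 CPM, and it passed through KMS11. The other 5 calls were higher in JJN3. They were KAT6B peak 3 (1.62 ± 0.29, adjusted p = 2.2e-06), CREBBP peak 3 (1.57 ± 0.41, adjusted p = 0.000862), BRD2 peak 1 (1.29 ± 0.22, adjusted p = 7.72e-07), KAT6A peak 2 (1.06 ± 0.29, adjusted p = 0.00171) and KAT6B peak 2 (1.01 ± 0.32, adjusted p = 0.00621). The last 2 lay at the 2-fold limit. KAT6A peak 2 fell below it without the JJN3 DMSO, JJN3 combination, KMS11 DMSO or KMS11 combination library and with scaling to total counts, down to 0.77. KAT6B peak 2 fell to 0.66 without the JJN3 or KMS11 GNE-781 library, where its adjusted p was 0.128 and 0.111, and went below 2-fold with scaling to total counts and with a filter of at least 5 CPM. CREBBP peak 3, at 4 to 21 counts a library, kept its call in each fit that left out 1 library. Over these fits its difference went down to 1.15 and its adjusted p up to 0.0496.

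Copy number was not measured, and the levels of other peaks in the same region were set beside each member. All 5 KAT6A peaks were higher in JJN3, by 0.67 to 1.06, and the median of the other 79 to 82 peaks within 2 Mb was 0.61. The KAT6A sum was 0.75 ± 0.10 higher (adjusted p = 3.91e-09), which is 1.69-fold and below the 2-fold limit. Around KAT2B the median of the 45 or 46 other peaks was -0.29 to -0.25, against 3.46 at peak 4 and -2.05 at peak 6. Around BRD2 it was 0.49 over 192 peaks, against 1.29 at its peak. Around BRD3 peak 1 it was -0.38 over 109 peaks, against -2.37, and around CREBBP peak 3 it was -0.16 over 179 peaks, against 1.57. Around KAT6B it was 0.28 over 57 peaks, against 0.37 at the promoter peak, 1.01 at peak 2 and 1.62 at peak 3. By summed counts 1 of 6 genes was called between the lines, BRD2, to which the table gives a single, intergenic peak (1.30 ± 0.21, adjusted p = 5.13e-07), against 23.1% of gene entries. Peaks at BRD2 starts carry the symbols HLA-DMA and XXbac-BPG181M17.6. They differed between the lines by 0.24 ± 0.15 (adjusted p = 0.16) and 0.52 ± 0.14 (adjusted p = 0.000802), neither reaching the 2-fold limit. The BRD2 call thus describes the intergenic peak and not the gene's starts.

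**Figure D4:**
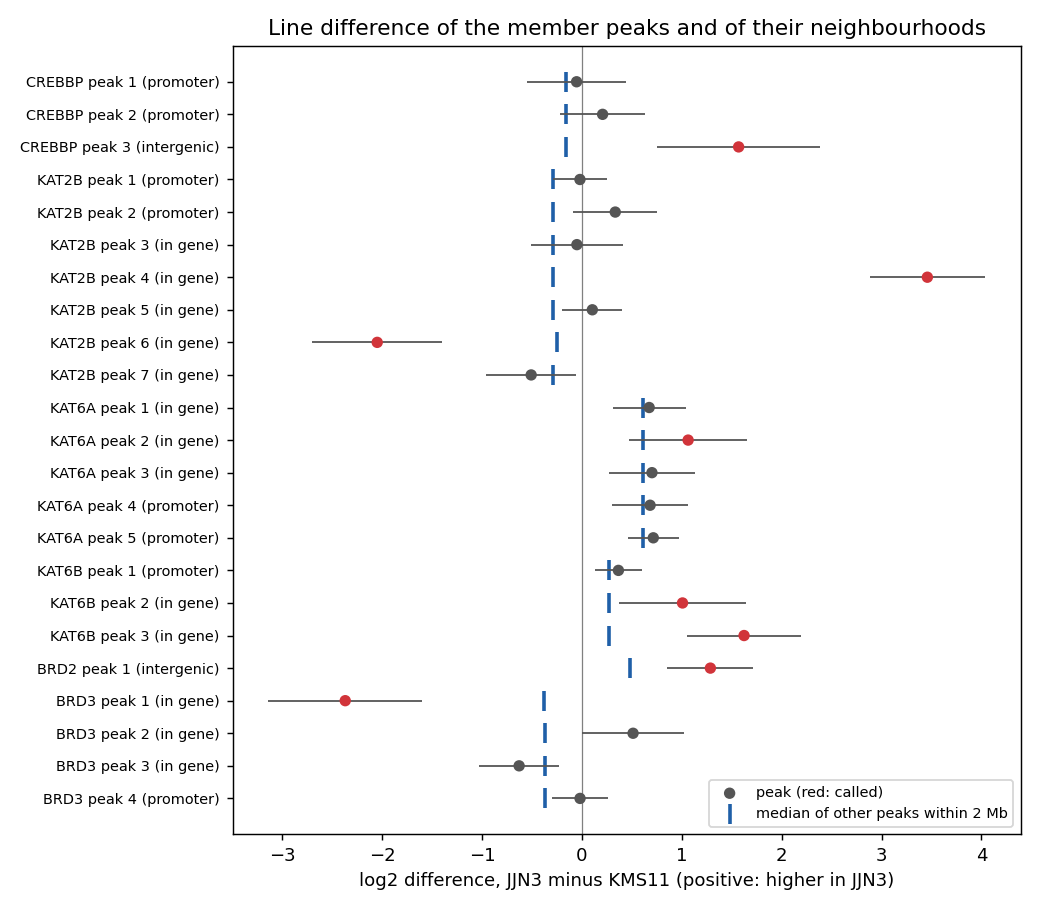
Log2 difference between JJN3 and KMS11 at each member peak, as dots with 95% intervals, red where called, beside the median of other peaks within 2 Mb as a blue tick. Of the 5 KAT6A dots, 4 sit near their ticks at 0.61 and that of peak 2 lies higher, at 1.06, and KAT2B peak 4, at 3.46, and BRD3 peak 1, at -2.37, lie far from theirs.

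The nearest-transcript symbols leave out peaks that lie over RefSeq starts of KAT2A and BRD2. These were looked for after the member peaks had been seen. The RefSeq start of KAT2A, which encodes the acetyltransferase GCN5, falls in a peak at chr17:42121119-42121541 that the table gives to CTD-2132N18.3. It had 7.48, 11.7, 8.33 and 7.27 CPM in JJN3 under DMSO, pomalidomide, GNE-781 and the combination, and 11.1, 14.4, 10.4 and 14.2 CPM in KMS11. It was called in no comparison, and libraries with pomalidomide differed from those without by 0.37 ± 0.24 (adjusted p = 0.468).

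The outermost BRD2 start lies in a peak at chr6:32968369-32968993 that the table gives to HLA-DMA. It had 44.1, 50, 37.2 and 61.1 CPM in JJN3 and 42.5, 39.0, 47.6 and 36.5 CPM in KMS11, and libraries with pomalidomide differed by 0.05 ± 0.15 (adjusted p = 0.929). A RefSeq start farther inside BRD2 has a peak just after it, at chr6:32971620-32972413, which the table gives to XXbac-BPG181M17.6. The 30 bases before that start carry a match to the YY1 motif AAGATGG, marked in capitals.
BRD2 inner start, chr6:32971565-32971594, plus strand: tctAAGATGGcgtctttttcctcgtttcag

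This inner BRD2 peak had 50.8 CPM under DMSO, 89.7 with pomalidomide, 55.8 with GNE-781 and 89.7 with both in JJN3, and 41.4, 53.4, 50.5 and 53.3 CPM in KMS11. Within each line both libraries with pomalidomide were above both libraries without it. Over the 4 libraries with pomalidomide against the 4 without, the peak rose by 0.46 ± 0.14 (adjusted p = 0.0277). The changes against DMSO were 0.57 ± 0.19 under pomalidomide (adjusted p = 0.135) and 0.56 ± 0.19 under the combination (adjusted p = 0.0753), neither called. The call over 4 against 4 libraries was lost with DESeq2's Wald test (adjusted p = 0.234) and on leaving out any 1 library other than KMS11 pomalidomide or KMS11 GNE-781. The difference ran from 0.35 to 0.59 over the 8 fits that left out 1 library. Overlapping transcripts share this region, and the peak cannot be assigned to 1 of them by these data.

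**Figure D5:**
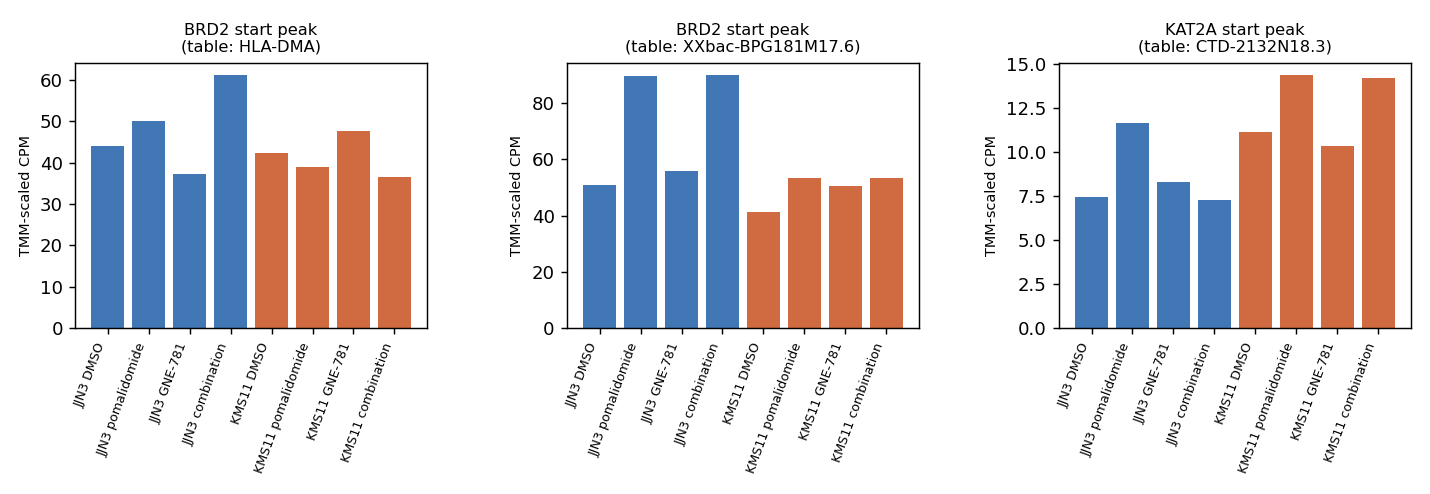
Level in TMM-scaled CPM (linear axis from 0) of the 3 peaks at RefSeq starts of BRD2 and KAT2A that the table gives to other symbols, with 1 bar per library, blue for JJN3 and orange for KMS11. In the middle panel the JJN3 libraries with pomalidomide reach 89.7 CPM, against 50.8 and 55.8 without.

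Genes that work with the members were read from lists of known partners and relatives: 96 genes, of which 83 had a peak (3 by an older symbol), with 270 peaks. Under the combination 10 of these peaks rose and 6 fell, 5.93% of them beside 4.78% of all peaks. In the list of p300/CBP and nuclear receptor coactivators 5 of 30 peaks rose and 0 fell. They were 1 peak in NCOA3 (1.01 ± 0.21, adjusted p = 0.00159), 3 in NCOA2, of which the one with the lowest p rose by 2.15 ± 0.46 (adjusted p = 0.00194), and 1 in NCOA1 (1.66 ± 0.42, adjusted p = 0.00981). These encode the p160 coactivators that bridge nuclear receptors and p300/CBP. With DESeq2's Wald test the NCOA3 call was kept (adjusted p = 0.0296) and those of NCOA1 and of this NCOA2 peak were lost (0.136 and 0.0562), while the other 2 NCOA2 peaks were given no adjusted p.

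Among SAGA and ATAC subunits, partners of KAT2A and KAT2B, 1 of 45 peaks rose, an intergenic one 672895 bp from SUPT3H (0.78 ± 0.20, adjusted p = 0.0121). Among MYST relatives and partners of KAT6A and KAT6B 1 of 23 rose, the promoter peak of the acetyltransferase gene KAT5 (0.79 ± 0.19, adjusted p = 0.00747). Among BET relatives and elongation factors 1 of 29 fell, in AFF1, a scaffold of the super elongation complex (-1.48 ± 0.29, adjusted p = 0.00057). Among other bromodomain genes 3 of 81 fell, in KMT2A (-2.13 ± 0.59), near ATAD2 (-1.33 ± 0.38) and in SMARCA2 (-0.68 ± 0.21), with adjusted p of 0.0198, 0.0242 and 0.0476. Among deacetylases, which remove the acetyl groups, 3 of 62 peaks rose and 2 fell. HDAC9 held 1 of each (1.97 ± 0.49 and -1.63 ± 0.33, adjusted p = 0.00934 and 0.000919). HDAC4 also held 1 of each, and its falling peak changed by -0.78 ± 0.19 (adjusted p = 0.00878). The shares called in these lists were, in the same order, 2.22%, 4.35%, 3.45%, 3.7% and 8.06%, beside 4.78% of all peaks. In libraries with GNE-781 against those without, 3 of the 270 peaks fell and 0 rose, 1.11% beside 0.622% of all peaks. Falls also made up 345 of the 387 calls over all peaks. The 3 were in SP100 (-0.93 ± 0.24, adjusted p = 0.0424), HDAC9 (-0.93 ± 0.23, adjusted p = 0.0357) and HDAC4 (-0.60 ± 0.14, adjusted p = 0.0193).

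Under pomalidomide 5 of the 270 peaks rose and 1 fell, 2.22% of them beside 1.27% of all peaks, and under GNE-781 0 were called (0.0209% of all peaks). The peaks that rose were those of NCOA1 (1.68 ± 0.41, adjusted p = 0.02), NCOA3 (0.80 ± 0.21, adjusted p = 0.0381) and SUPT3H (0.84 ± 0.20, adjusted p = 0.0152) that also rose under the combination, and 1 each in the deacetylase genes HDAC4 and HDAC5. A different peak of NCOA2 fell (-1.63 ± 0.41, adjusted p = 0.0218). All 6 lost their call with DESeq2's Wald test (adjusted p of 0.186 to 0.727) and without any 1 of at least 3 libraries. Both comparisons share the DMSO libraries.

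The calls among the partner genes were also read under the alternatives. With DESeq2's Wald test the combination calls of NCOA3, AFF1 and the falling HDAC9 peak were kept (adjusted p of 0.0204 to 0.0296). Those of SUPT3H (0.104), KAT5 (0.0737), ATAD2 (0.224) and SMARCA2 (0.261) were lost, as were those of HDAC4 (0.159) and HDAC9 (0.232) in libraries with GNE-781, and KMT2A, SP100 and the rising HDAC9 peak were given no adjusted p. Scaled to total counts, the calls of SMARCA2 (0.0554), SP100 (0.0795) and HDAC9 with GNE-781 (0.0763) were lost, and that of SMARCA2 also with a filter of at least 5 CPM (0.0557). Total counts also lost the pomalidomide calls of NCOA3 (0.0529) and HDAC5 (0.0528). The NCOA2 combination call at chr8:70384654-70384964 was lost with total counts (0.0511) and with DESeq2 size factors (0.0517). DESeq2's Wald test also lost the combination calls of HDAC5 (0.241) and of the falling and rising HDAC4 peaks (0.089 and 0.317). That of the rising HDAC4 peak was also lost with DESeq2 size factors (0.0625).

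Each named combination call was also lost without at least 1 library. The NCOA3 peak and the HDAC9 peak that fell lost theirs without the JJN3 combination library, and that of NCOA2 without it or KMS11 DMSO. Those of AFF1, ATAD2, the falling HDAC4 peak and the rising HDAC9 peak were lost without KMS11 DMSO or KMS11 combination. The last then went as low as 0.75. Those of NCOA1, SUPT3H and KMT2A were lost without any 1 of the 4 DMSO and combination libraries, and that of KAT5 without any of these but JJN3 DMSO. The SMARCA2 peak lost its call without any of 5 libraries. In libraries with GNE-781, the HDAC4 call was lost without any of 5 libraries, and those of SP100 and HDAC9 without any of 6.

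The gene entries whose summed levels were most like a member's over the 8 libraries, by Pearson's correlation of log2 CPM among entries at 0.5 to 2 times its level, were ATP2B1 for KAT2B (r = 0.97), PPP1CC and RBBP4P3 for CREBBP (0.95 and 0.96), LINCMD1 and MED10 for KAT6A (0.99 each), PLEKHA8 for KAT6B (0.99), RP5-965F6.2 for BRD2 (0.99) and TTLL12 for BRD3 (0.96). These are the highest of 3153 to 11427 candidates each, and the 8 points share 2 lines and 8 depths.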

How the data were processed

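ATAC-seq libraries of JJN3 and KMS11 were analysed, 1 for each of 4 treatments and 2 lines, grouped by their cell line and treatment labels. The authors deposited 1 table of raw counts, whole read numbers for each peak in each library. Its peaks are a MACS2 union (q 0.01, per the file's name), each with its nearest transcript. The submitters' processing notes name MACS2 2.1.1.20160309, Bowtie2 2.3.5.1, SAMtools 1.10, R 4.1.2, cutadapt 2.5 and Trim Galore 0.6.4, and the build GRCh38. Handling of duplicates, mitochondrial reads and the transposase offset is not given in the sources used here. Such a union favours deep libraries. PCR copies are no independent molecules, and the counting intervals of the within-line ratios cover counting error only and take no account of such copies. The intervals of the model's changes come from its SE, which also takes in the spread among the libraries.

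Peaks averaging 2 CPM or more (62234 kept, 294 removed) were tested in R 4.3.3 with edgeR 4.0.16 on the counts: TMM scaling, line and treatment as terms, 3 residual and 63.3 prior degrees of freedom, two-sided. A second model tested line-dependent drug changes, taking the drugs to add (2 residual degrees of freedom). For within-line ratios, 2 counts were added as a prior. Since no label states separate cultures, p-values cover only the spread among these libraries, which can be technical. With 1 library for each line and treatment, that spread in the first model is how drug changes differ between the lines. A line-dependent drug response is thus counted as spread. Alternatives were DESeq2 1.42.0 (size factors and its Wald test), total counts, other filters, prior counts and windows, the compared libraries alone, each library left out, and, added after the data were seen, peaks over RefSeq promoter windows. Only the first edgeR model was run on simulated counts, with a common dispersion and for the combination against DMSO and the line difference. The second model and the DESeq2 fits were not.

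Members and lists were chosen with earlier results of these data known. Named were member peaks called in any comparison, each gene's promoter peak with the most counts and its largest change under the combination, and in each partner list at most 3 called peaks. Promoter sequences came from RefSeq (GRCh38.p14), where 6 of 7 genes matched, and the strand of the table was checked on 9 hairpins. Peak sequences were not used here.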

Additional observations from a re-analysis of the deposited data

Results flagged for a closer look

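Among 46 groups of 4 libraries (23 peaks in each line), 3 held a library far from the other 3 in level. Chance gives about 1 in 20 for replicates, a share near the 3 of 46. The 4 libraries of a group are 4 treatments and not replicates, so this rate need not hold. At CREBBP peak 3 the JJN3 combination library had 10.2 CPM, against 5.00 to 5.23 in the other JJN3 libraries. At KAT6A peak 2 the JJN3 pomalidomide library was low, at 4.67 CPM against 13.5 to 16.4. At the BRD3 promoter peak, peak 4, the JJN3 DMSO library was low, at 32.9 CPM against 45.5 to 48.0. All 3 were JJN3 libraries, which were the shallower ones except that of pomalidomide, at 3218581 counts. The part of depth in these values was not tested.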

How the results depend on the processing

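Of the 12 counts of member peaks or genes called, 10 stayed within 1.5 times the reported count under every alternative run. Apart from those between the lines, these 10 were 0 in every run. The count under the combination was 2 with DESeq2 size factors, 0 with DESeq2's Wald test and 0 to 1 on leaving out 1 library. With the peaks over RefSeq promoter windows added, the count in libraries with pomalidomide against those without was 1, the inner BRD2 start peak. The cause was not tested. Between the lines the count was 6 to 8. Small changes under the combination turned direction: KAT2B peak 6 was 0.084 with DESeq2's Wald test. On leaving out 1 library the combination change ran from -0.41 to 0.96 at CREBBP peak 3, -0.13 to 0.28 at KAT2B peak 1, -0.46 to 1.09 at KAT2B peak 6, -0.61 to 0.79 at KAT6A peak 2, -0.13 to 0.072 at KAT6B peak 1, -0.53 to 0.49 at KAT6B peak 2, -0.74 to 0.35 at KAT6B peak 3, -0.42 to 0.19 at BRD2 peak 1 and -0.52 to 0.57 at BRD3 peak 1. By summed counts it ran from -0.16 to 0.11 for KAT6B and -0.41 to 0.19 for BRD2. The outermost BRD2 start peak ran from -0.12 to 0.26 with pomalidomide. With windows of 1 and 5 Mb the neighbourhood median of each gene's peak 1 was -0.89 and -0.04 around KAT2B, 0.90 and 0.69 around KAT6A, and 0.18 and 0.16 around KAT6B. The line served as the block, so each treatment was compared with DMSO of the same line. Depth was lowest in the JJN3 DMSO library, at 1366628 counts, and peaks such as BRD3 peak 1 and KAT2B peak 6 rest on 10 or fewer counts in each JJN3 library.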
